A study of Mus musculus with 3 samples.

Results

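The core pluripotency factors are the transcription factor genes Pou5f1, Sox2, Nanog, Sall4 and Zfp281, the chromatin and genome-maintenance genes Utf1 and Rif1, the RNA-binding protein genes Lin28a and L1td1, and Tcl1, which encodes a co-activator of the kinase Akt. They were chosen by name as 10 genes, and a probe was theirs where its gene name in the scanner files, its accession or a synonym led to one of them. Of these 10 genes, 9 had probes (11 probes in all, with 2 each for Sall4 and Rif1), among 17714 genes tested. No spot led to L1td1 by any of these 3 routes, and it was not analysed here. The samples were 2 Tet1 knockout samples (KO 4 and KO 22) and 1 Tet1 wild type sample of mouse embryonic stem cells, each on its own 1-colour Agilent array. All 3 were of the V6.5 line on a mixed 129 and C57BL6 background, were cultured with leukaemia inhibitory factor (LIF) on irradiated feeder cells, and were preplated, a step that removes feeders, before total RNA was taken. Tet1 encodes a dioxygenase that oxidises 5-methylcytosine in DNA. The labels give neither the knockout allele nor whether KO 4 and KO 22 came from separate clones or cultures; mice are mentioned in the design text. Wild type is a single sample, so every p-value below rests on how far KO 4 lies from KO 22, a spread that may be technical. This spread is taken from the gene itself and from all genes together. Where a gene's own gap is small, the spread shared over all genes sets most of its error. The Tet1 probe read 214 in KO 4 and 195 in KO 22, against 721 in wild type, a log2 difference of -1.94 ± 0.09 after scaling (limma adjusted p = 0.0529); its place relative to the deleted part was not stated in the labels.

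Oct4, the product of Pou5f1, pairs with Sox2 on adjacent DNA sites, and with Nanog they bind the enhancers of each other's genes and of many further genes that hold embryonic stem cells in the self-renewing state. Sall4 and Zfp281 are zinc-finger proteins that bind many of the same enhancers, and Zfp281 is also known to restrain Nanog transcription. Lin28a blocks the maturation of the let-7 microRNAs, Utf1 binds chromatin at developmental genes, and Rif1 acts in replication timing, in the choice of DNA break repair and at telomeres. Tet1 itself is known to be transcribed in embryonic stem cells, and its protein carries a CXXC domain that binds CpG-rich DNA.

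The promoters of 4 members are shown because these members had the largest differences in each direction, Pou5f1 and Lin28a on the lower side and Zfp281 and Nanog on the higher side. Each sequence runs from 250 bases before to 50 bases after a transcription start in RefSeq's GRCm38.p6 annotation, in the direction of transcription. For Pou5f1, Nanog and Zfp281 this is the start of the annotated gene, and for Lin28a it is not. Capitals mark CpG dinucleotides, the sites of DNA methylation.
Pou5f1 promoter, chr17:35505782-35506081, plus strand: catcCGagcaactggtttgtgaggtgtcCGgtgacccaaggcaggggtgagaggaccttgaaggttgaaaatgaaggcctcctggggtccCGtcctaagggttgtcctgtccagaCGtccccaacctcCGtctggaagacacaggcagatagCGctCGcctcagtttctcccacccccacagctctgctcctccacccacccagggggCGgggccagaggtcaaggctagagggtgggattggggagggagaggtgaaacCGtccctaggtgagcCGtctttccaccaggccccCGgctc
Lin28a promoter, chr4:134018767-134019066, minus strand: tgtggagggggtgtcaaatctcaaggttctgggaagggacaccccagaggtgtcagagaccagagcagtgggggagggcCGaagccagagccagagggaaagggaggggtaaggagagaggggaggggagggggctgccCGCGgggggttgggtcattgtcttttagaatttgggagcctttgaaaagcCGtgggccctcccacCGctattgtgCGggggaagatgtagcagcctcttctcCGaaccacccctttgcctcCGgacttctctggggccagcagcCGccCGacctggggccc
Nanog promoter, chr6:122707239-122707538, plus strand: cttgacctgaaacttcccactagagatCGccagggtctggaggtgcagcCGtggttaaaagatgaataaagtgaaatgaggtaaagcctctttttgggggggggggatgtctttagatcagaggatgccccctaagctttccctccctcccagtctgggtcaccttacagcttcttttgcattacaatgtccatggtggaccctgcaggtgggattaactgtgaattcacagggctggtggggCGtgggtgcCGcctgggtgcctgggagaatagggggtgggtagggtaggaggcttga
Zfp281 promoter, chr1:136624651-136624950, plus strand: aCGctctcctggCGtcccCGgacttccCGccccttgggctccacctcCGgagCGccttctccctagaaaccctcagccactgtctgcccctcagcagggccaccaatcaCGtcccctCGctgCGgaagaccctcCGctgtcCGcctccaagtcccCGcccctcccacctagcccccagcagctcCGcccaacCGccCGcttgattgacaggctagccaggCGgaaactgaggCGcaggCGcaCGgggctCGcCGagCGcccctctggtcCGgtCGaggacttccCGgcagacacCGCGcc
Of the 10 members, 8 matched the promoter table by symbol; Sall4 and Rif1 did not. Zfp281 held 27 CpG, Pou5f1 11, Lin28a 10 and Nanog 4, against a median of 7 over 32851 promoters. The members with higher values thus had both the most and the fewest CpG of these 4. Sox2 also held 27, Utf1 17, L1td1 14 and Tcl1 11. A composite Sox and POU element (the Sox letters CATTGT, any 1 base, then the POU letters ATGCAAA, searched on both strands) matched once in the Nanog promoter, as CATTGTaATGCAAA on the minus strand at chr6:122707414-122707427. Among all 32851 promoters this motif was found in 2 (0.00609%), which are the overlapping promoters of Nanog's 2 listed starts and hold this same site. The search allowed no mismatch, so variant elements in other promoters could not match. The Sox part alone (CATTGT, in 12.6% of promoters) also matched in Lin28a and at the second listed start of Pou5f1, and the POU part alone (ATGCAAA, in 4.63%) also matched in Sox2. Both parts lie within the composite element in Nanog. These matches describe the letters in this window only.

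Every probe of the 9 members was well above background on all 3 arrays, and none was saturated or carried an outlier flag. The mean spot signal was at least 30.2 times the local background, at the dimmer Sall4 probe in KO 22. Thus 9 of 9 measured members were detected in each sample, where 62.2% to 62.8% of all spots were well above background. All measured markers of feeders (20), primitive endoderm (15), trophoblast (11), neural progenitors (10) and mesendoderm (7) were detected in each sample too. Being measured already required detection on at least 1 array, so detection does not tell these cell types apart. Intensities before scaling are given first below. Differences are log2 values after each array was scaled to its 75th percentile, which was 718 in KO 4 and 645 in KO 22, against 624 in wild type. A difference is knockout minus wild type, and an error is the standard error from limma with n = 2 against 1. Levels are compared within a probe, since probes differ in their own brightness; sums over a list, given for the markers, therefore weigh its brightest probes most.

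**Figure D1:**
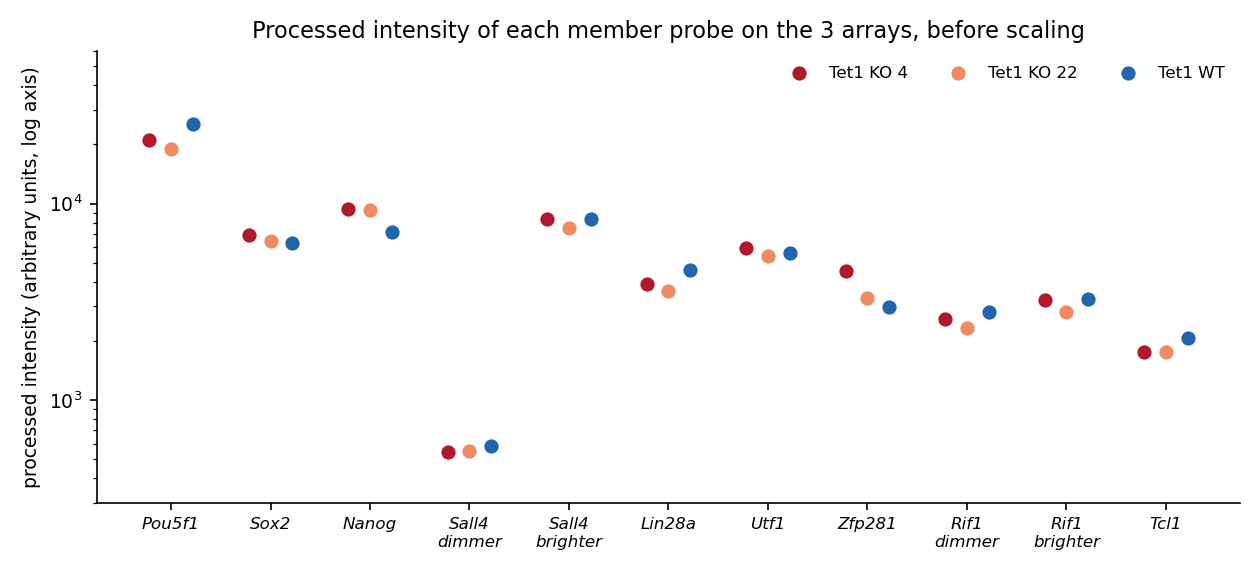
Processed intensity (arbitrary units, log axis) of the 11 member probes in KO 4 (dark red), KO 22 (orange) and wild type (blue), before scaling between arrays. For Pou5f1, Lin28a, Tcl1, each Rif1 probe and the dimmer Sall4 probe, both knockout points lie below the wild type point. For Sox2, Nanog and Zfp281 both lie above it.

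Among the central transcription factors, Pou5f1 had the lowest scaled values relative to wild type. Its probe (chr17:33612047-33612107 on build mm7) read 21200 in KO 4 and 18958 in KO 22, against 25371 in wild type. Both knockout arrays were lower and lay within 0.01 of each other after scaling. The difference was -0.47 ± 0.09, a 1.38-fold lower level (limma adjusted p = 0.117). Sox2, the HMG-box partner of Oct4, read 6883 in KO 4 and 6450 in KO 22, against 6300 in wild type (chr3:34459231-34459290). After scaling the knockout arrays were 0.08 and 0.01 below wild type, a difference of -0.04 ± 0.09 (limma adjusted p = 0.78), whose sign turned under quantile normalization (0.0056) and in the deposited matrix (0.021). Nanog, a homeodomain factor, went the other way. It read 9356 in KO 4 and 9323 in KO 22, against 7204 in wild type (chr6:122750894-122750953). Both knockout arrays were higher, by 0.17 and 0.32, and the difference was 0.25 ± 0.12, a 1.19-fold higher level (limma adjusted p = 0.269).

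The zinc-finger factors split. Sall4 has 2 probes on chromosome 2. The brighter (chr2:168541487-168541546) read 8360 in KO 4 and 7543 in KO 22, against 8352 in wild type, a difference of -0.20 ± 0.09 (limma adjusted p = 0.258). The dimmer (chr2:168545326-168545385) read 546 in KO 4 and 553 in KO 22, against 586 in wild type. Fitted with every probe as a feature, the dimmer probe differed by -0.22 ± 0.12 (limma adjusted p = 0.342), so the probes of Sall4 went the same way. Zfp281 read 4563 in KO 4 and 3304 in KO 22, against 2990 in wild type (chr1:136516106-136516165). Its knockout arrays were both higher but lay 0.41 and 0.10 above wild type, and the difference of 0.25 ± 0.18 came mostly from KO 4 (limma adjusted p = 0.425). Without KO 4 the difference of Zfp281 was 0.10, and without KO 22 it was 0.41, with no test in either case.

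Lin28a followed Pou5f1 closely. Its probe (named Lin28 in the files, chr4:133382045-133382104) read 3908 in KO 4 and 3571 in KO 22, against 4601 in wild type. Both knockout arrays were lower, by 0.44 and 0.41, and the difference was -0.43 ± 0.09, a 1.34-fold lower level (limma adjusted p = 0.125). Tcl1 read 1755 in KO 4 and 1765 in KO 22, against 2061 in wild type (chr12:102711536-102711595). Both knockout arrays were lower, by 0.43 and 0.27, and the difference was -0.35 ± 0.12, a 1.28-fold lower level (limma adjusted p = 0.191).

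Rif1 was lower on both knockout arrays at each of its 2 probes, which lie on chromosome 2. The brighter (chr2:52118400-52118459) read 3227 in KO 4 and 2823 in KO 22, against 3283 in wild type, a difference of -0.25 ± 0.09 (limma adjusted p = 0.208). The dimmer (chr2:52129017-52129076) read 2597 in KO 4 and 2319 in KO 22, against 2823 in wild type, and differed by -0.33 ± 0.09 with every probe as a feature (limma adjusted p = 0.157). Utf1 read 5932 in KO 4 and 5388 in KO 22, against 5637 in wild type (chr7:136358008-136358067). After scaling both knockout arrays lay 0.13 and 0.11 below wild type, a difference of -0.12 ± 0.09 (limma adjusted p = 0.433). For Sox2, Utf1 and the brighter Sall4 probe the order of the unscaled readings differed from that of the scaled values on at least 1 knockout array, since the knockout arrays were brighter as a whole.

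**Figure D2:**
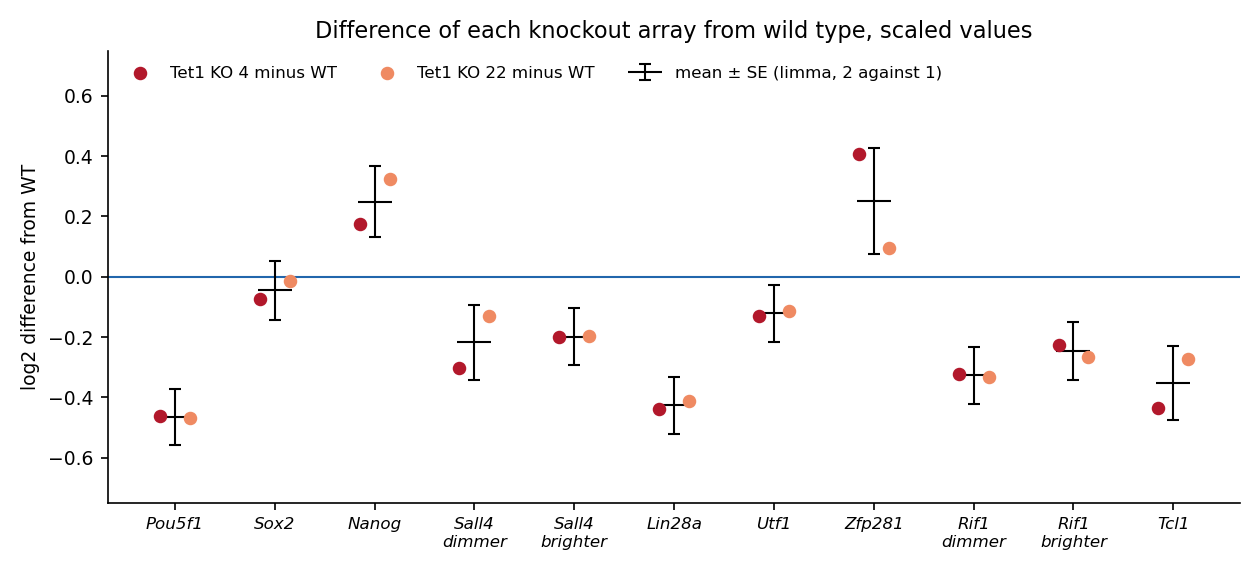
Log2 difference from wild type (line at 0) of KO 4 and KO 22 at each member probe after scaling, with the mean and standard error from limma fitted on every probe. The largest mean differences are those of Pou5f1 (-0.47) and Lin28a (-0.43), and at Zfp281 the knockout arrays lie farthest apart (0.31).

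Of the 9 members, 7 were lower and 2 (Nanog and Zfp281) higher on both knockout arrays. Over all 17714 genes, both knockout arrays were below wild type for 45.5% and above it for 38%. Limma called 0 of the 9 members, against 63 genes (0.356%) over the whole table, of which 6 (0.0339%) were higher and 57 (0.322%) lower. Before adjustment, 2 members passed 0.05: Pou5f1 and Lin28a were lower, against 14.9% of all genes, and 0 members were higher, against 13.2%. With an intensity trend in the variance model limma called the same 2 lower, Pou5f1 (adjusted p = 0.0131) and Lin28a (adjusted p = 0.0165), against 10.7% of all genes, and 0 higher, against 8.31%. They passed also with normexp background correction once 5 wild type spots far dimmer than their background were left out, at an adjusted p of 0.0075 for Pou5f1 and 0.0107 for Lin28a, where Rif1 passed too (0.0486). These 3 members were lower and 0 were higher, in a setting that called 1963 of 17712 genes lower and 1347 higher. None of the members differed by 2-fold or more in both knockout samples, as 3.01% of all genes did (1.45% higher and 1.56% lower). The median difference of the members was -0.20, against -0.03 over all genes and -0.06 over the 5338 genes at or above the mean level of the dimmest member, of which 55% were below wild type on both arrays. Whether any member truly fell is not settled with a single wild type array. If so, fewer undifferentiated cells and less RNA per cell cannot be told apart in these bulk samples.

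**Figure D3:**
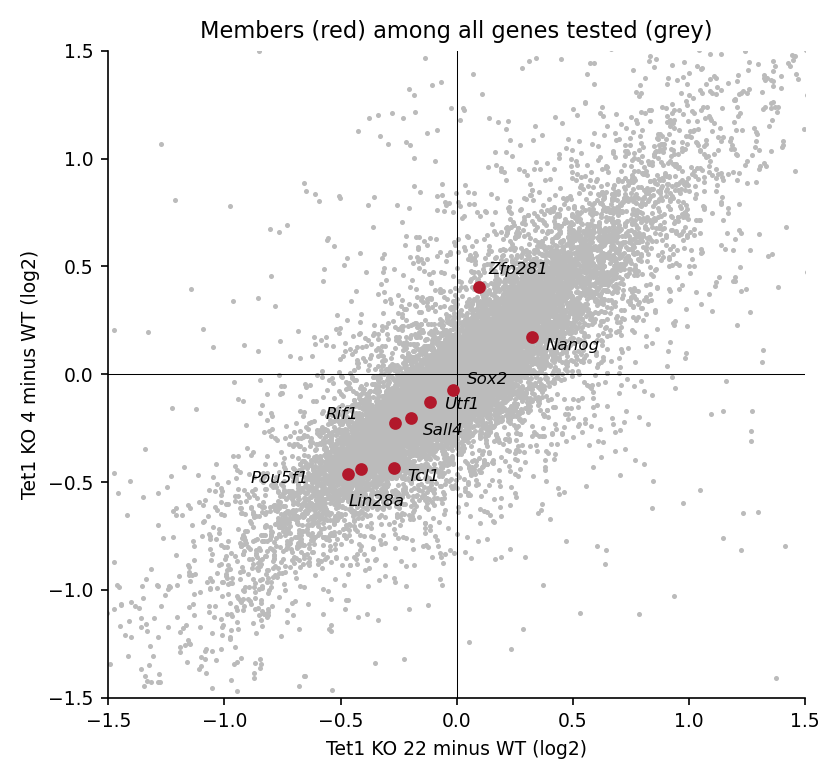
Log2 difference from wild type in KO 4 (y axis) against KO 22 (x axis) for all genes tested (grey) and the 9 members (red), with axes ending at 1.5 so that 474 genes lie outside. The arrays share their wild type values, so some alignment along the diagonal is built in; 7 members lie in the lower left and Nanog and Zfp281 in the upper right.

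Most members lay close together in the knockout samples. The absolute difference between KO 4 and KO 22 had a median of 0.04 over the members, against 0.10 over all genes. Of the 17714 genes only 5338 reached the dimmest member's mean level, and the gap was not compared among those alone. It was 0.01 for Pou5f1 and for Sall4, 0.02 for Lin28a and for Utf1, 0.15 for Nanog, 0.16 for Tcl1 and 0.31 for Zfp281. Of all genes, 12.7% had a wider gap than Zfp281. The scanner software assigns each of these spots an error of 10%, a preset of its error model rather than a replicate spread, which corresponds to 0.18 on the log2 scale for a mean of 2 arrays against 1. The differences of Pou5f1 and Lin28a were 2.63 and 2.41 times that size, and those of Sox2 and Utf1 were 0.253 and 0.688 times.

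How members differed from one another does not depend on a scaling factor shared by all spots of an array. The log2 difference of Nanog minus that of Pou5f1 was 0.64 in KO 4 and 0.79 in KO 22, a mean of 0.71, so the ratio of Nanog to Pou5f1 signal was 1.64-fold higher in the knockout samples. Of the 11 processing alternatives, 5 changed contrasts between these genes and the rest leave them as they are by construction; over those 5 it ran from 0.69 to 0.74. The same contrast of Nanog with Lin28a was 0.61 in KO 4 and 0.74 in KO 22, a mean of 0.68 with a range of 0.68 to 0.74. Sox2 minus Pou5f1 was 0.39 in KO 4 and 0.45 in KO 22, with a mean of 0.42 (0.37 to 0.43). Lin28a minus Pou5f1 was 0.02 in KO 4 and 0.05 in KO 22, with a range of -0.05 to 0.02, so these members lay close together. Such contrasts show unequal change and not which gene changed. The 4 pairs were chosen after their values were seen and carry no test.

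Known targets of Oct4, Sox2 and Nanog stood on both sides of wild type. The counts of this and the following lists stand beside those of all genes, of which 45.5% were lower and 38% higher on both knockout arrays, 14.9% lower and 13.2% higher at an unadjusted p below 0.05, and 10.7% lower and 8.31% higher with an intensity trend; no difference from all genes was tested. Of 36 measured targets of 40 listed, 21 (58.3%) were lower and 11 (30.6%) higher on both knockout arrays, with a median of -0.16. Limma called 0. Before adjustment 14 (38.9%) were lower and 5 (13.9%) higher, and with an intensity trend 14 (38.9%) were called lower and 7 (19.4%) higher. Otx2, a homeobox gene of the primed epiblast, read 56.1 in KO 4 and 43.3 in KO 22, against 185 in wild type, a difference of -2.03 ± 0.14 (limma adjusted p = 0.0766). Lefty1, an inhibitor of Nodal signalling, read 11019 in KO 4 and 8288 in KO 22, against 17814 in wild type, a difference of -1.02 ± 0.16 (limma adjusted p = 0.105). Dppa3, the germ cell and early embryo gene also called Stella, read 16155 in KO 4 and 13861 in KO 22, against 6920 in wild type, a difference of 0.99 ± 0.09 (limma adjusted p = 0.097). Fgf5, a marker of the primed epiblast, stood at 0.93 ± 0.32, with 1.24 in KO 4 and 0.63 in KO 22. Otx2 and Fgf5, which both mark the primed state, thus stood on opposite sides of wild type.

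All 46 listed protein partners and co-regulators of these factors were measured, and 25 (54.3%) were lower and 10 (21.7%) higher on both knockout arrays, with a median of -0.08. The share of lower genes is near the 55% among genes at the members' level. Limma called 0. Before adjustment 8 (17.4%) were lower and 0 higher, and with an intensity trend 9 (19.6%) were called lower and 1 (2.17%) higher. The largest differences were those of Myc, the proto-oncogene, at 0.58 ± 0.21, of the cell cycle factor E2f1 at -0.49 ± 0.09, and of the co-repressor Trim28 and the Nanog partner Nacc1, both at -0.48 ± 0.09. Trim28 read 44243 in KO 4 and 40189 in KO 22, against 53995 in wild type.

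In the Lin28a and let-7 axis, 16 of 25 measured genes (64%) were lower and 5 (20%) higher on both knockout arrays, with a median of -0.15. Limma called 0. Before adjustment 3 (12%) were higher and 2 (8%) lower, and with an intensity trend 2 (8%) were called higher and 1 (4%) lower, shares at or below those of all genes. Hmga2, a chromatin protein gene repressed by let-7, read 317 in KO 4 and 201 in KO 22, against 113 in wild type, a difference of 1.04 ± 0.26. Tut4, the uridylyl transferase that Lin28a recruits to let-7 precursors, stood at 0.56 ± 0.09. Lin28b, the paralogue of Lin28a, stood at -0.36 ± 0.18 and Mycn at -0.36 ± 0.10.

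Of 25 measured partners of Rif1, 12 (48%) were lower and 8 (32%) higher on both knockout arrays, with a median of -0.05, near the values of all genes. Limma called 0, with 3 (12%) lower and 1 (4%) higher both before adjustment and with an intensity trend. Terf1, a telomere-binding protein gene, read 10529 in KO 4 and 9874 in KO 22, against 6602 in wild type, a difference of 0.50 ± 0.09. Trp53bp1, which recruits Rif1 to DNA breaks, stood at -0.34 ± 0.09, Shld1 of the shieldin complex at -0.36 ± 0.09, and Ppp1ca, a catalytic subunit of the phosphatase that Rif1 binds, at -0.32 ± 0.10. Of 22 genes of Akt signalling, through which Tcl1 acts, 11 (50%) were higher and 6 (27.3%) lower on both knockout arrays, with a median of 0.08. Limma called 0, with 4 (18.2%) higher and 1 (4.55%) lower both before adjustment and with an intensity trend. Eras, a constitutively active Ras of embryonic stem cells, stood at 0.57 ± 0.11, the kinase subunit gene Pik3cb at 0.55 ± 0.13 and the regulatory subunit gene Pik3r2 at -0.37 ± 0.12.

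Among 26 measured homologues of the members (of 32 listed), 19 (73.1%) were lower and 6 (23.1%) higher on both knockout arrays, with a median of -0.14. Limma called 0. Before adjustment 4 (15.4%) were lower and 2 (7.69%) higher, and with an intensity trend 3 (11.5%) were called lower and 1 (3.85%) higher. The endoderm factor genes Sox17 and Sox7 stood at -1.36 ± 0.09 and -0.88 ± 0.09, with Sox17 readings of 51.7 in KO 4 and 46.7 in KO 22, against 116 in wild type. Sall2, a relative of Sall4, read 751 in KO 4 and 626 in KO 22, against 298 in wild type, a difference of 1.08 ± 0.10. Sox9 stood at 0.80 ± 0.29, with 1.08 in KO 4 and 0.53 in KO 22.

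**Figure D4:**
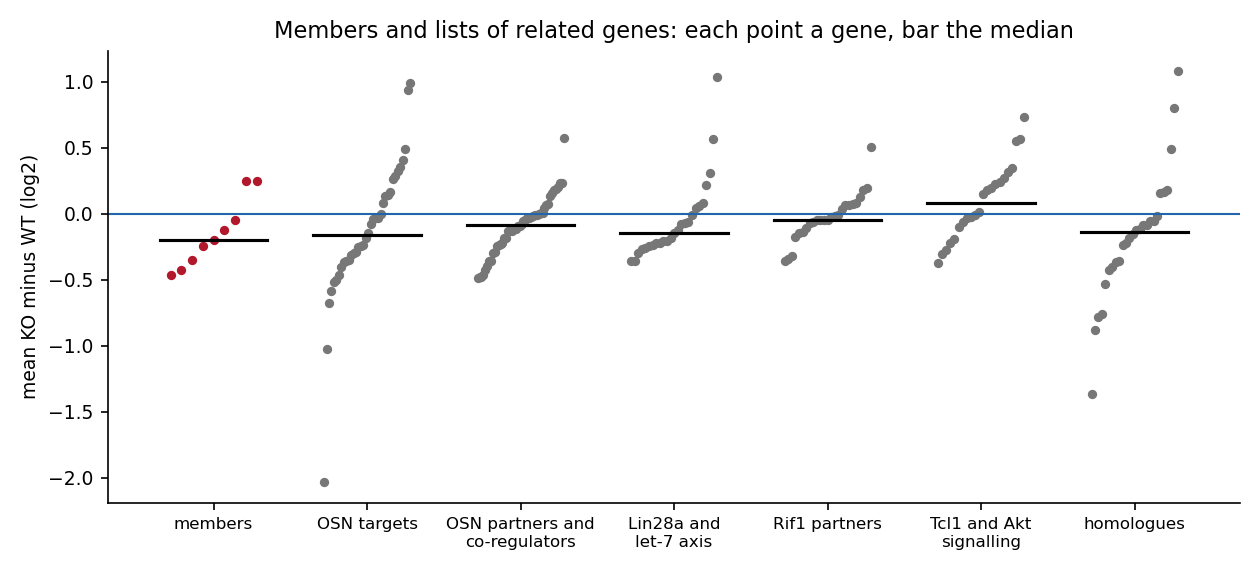
Mean log2 difference of the knockout arrays from wild type for the 9 measured members (red) and for the measured genes of 6 related lists (grey; OSN stands for Oct4, Sox2 and Nanog), with each list's median as a bar. The members span -0.47 to 0.25, while the homologue list runs from -1.36 (Sox17) to 1.08 (Sall2), the target list from -2.03 (Otx2) to 0.99 (Dppa3), and Hmga2 of the let-7 list lies at 1.04.

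Markers of other cell types also stood apart from wild type, and their part in the members' values was not tested. Limma called 1 of them, Cubn of the primitive endoderm list, which encodes an endocytic receptor and stood lower at -3.46. With an intensity trend limma called 7 of 11 trophoblast markers higher and 0 lower, and 7 of 15 primitive endoderm markers lower and 1 higher. It called 4 of 10 neural progenitor markers lower, 2 of 20 feeder and fibroblast markers higher and 1 of 7 mesendoderm markers lower. Of all genes, 8.31% were called higher and 10.7% lower in that fit. For trophoblast, 10 of the 11 markers measured stood above wild type in both knockout samples, with summed linear levels, relative to each array's 75th percentile, of 233 in KO 4 and 206 in KO 22, against 130 in wild type. The keratin genes Krt18 and Krt8 made up 92.5% of the sum in KO 4 and 91.2% in KO 22, against 90.3% in wild type, and the other 9 markers summed to 17.3 in KO 4 and 18.2 in KO 22, against 12.6 in wild type. Cdx2, a defining trophoblast factor, read 287 in KO 4 and 274 in KO 22, against 131 in wild type. Of 15 primitive endoderm markers, 11 were lower and 3 higher, with sums of 11.7 in KO 4 and 10.8 in KO 22, against 12.4 in wild type. The brightest were higher: Lamb1 at 3.79 in KO 4 and 3.88 in KO 22, against 3.48 in wild type, and Lrp2 at 2.54 and 2.00, against 1.81. Without Lamb1 and Lrp2 the other 13 summed to 5.38 in KO 4 and 4.94 in KO 22, against 7.12 in wild type. The defining primitive endoderm factor Gata6 stood at -1.17 ± 0.13. Of 20 feeder and fibroblast markers, 7 were higher and 3 lower on both arrays, with sums of 73.1 in KO 4 and 58.2 in KO 22, against 49.8 in wild type. Tagln, a smooth muscle and fibroblast gene, gave 27.3 of this in KO 4 and 18.6 in KO 22, against 8.16 in wild type, and without it the sums were 45.8 in KO 4 and 39.6 in KO 22, against 41.7 in wild type. The median difference of the 20 feeder and fibroblast markers was 0.71 in KO 4 and -0.08 in KO 22. Of 10 neural progenitor markers 6 were lower and 2 higher, with sums of 8.95 in KO 4 and 8.45 in KO 22, against 13.6 in wild type. Of 7 measured mesendoderm markers 4 were lower and 3 higher, with sums of 0.912 in KO 4 and 0.861 in KO 22, against 1.43 in wild type. Without the brightest, Tbx6 and Foxa2, the other 5 summed to 0.224 in KO 4 and 0.208 in KO 22, against 0.191 in wild type. Foxa2, also on the primitive endoderm list, stood at 0.256 in KO 4 and 0.231 in KO 22, against 0.753 in wild type. The summed level of the 9 members was 90.8 in KO 4 and 91.7 in KO 22, against 105.5 in wild type. Pou5f1, the brightest member and the one with the largest difference, weighs most in this sum. Pou5f1 and Nanog are known to have processed pseudogenes; probe sequences were not used here, and shared signal was not tested.

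**Figure D5:**
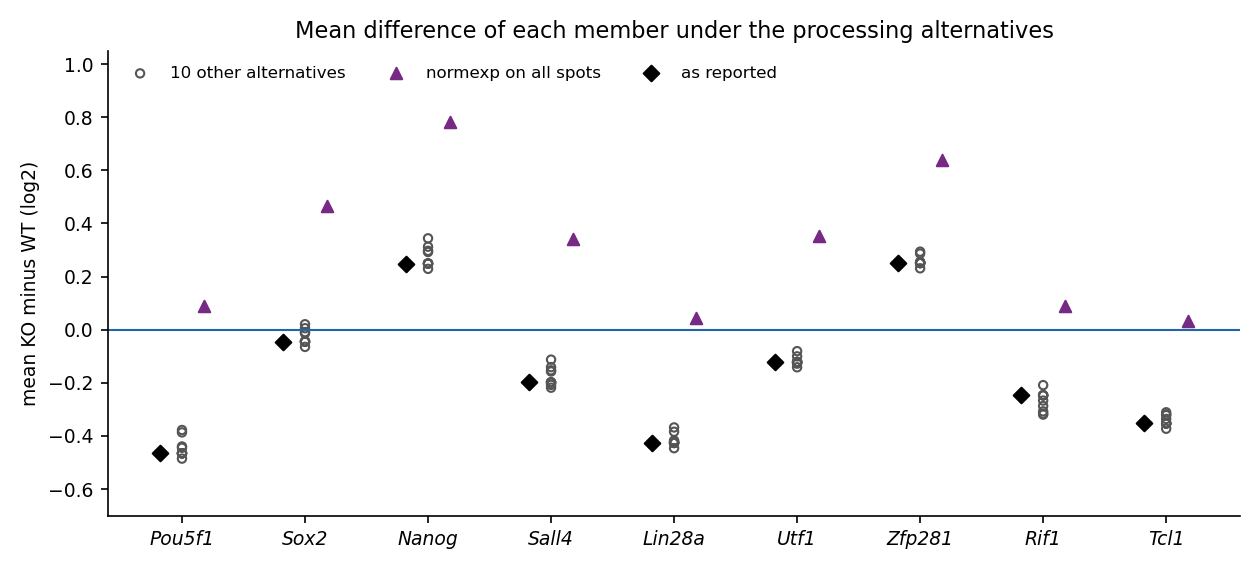
Mean log2 difference from wild type of each member as reported (diamond), under normexp background correction on all spots (triangle) and under 10 other processing alternatives (circles). Under normexp on all spots all 9 members lie above 0, while under the others Pou5f1 stays between -0.49 and -0.38 and Nanog between 0.23 and 0.34. Some circles equal the reported value by construction.

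The direction of 8 of the 9 members held under the alternatives other than normexp on all spots. Sox2 was the exception, with values from -0.06 to 0.02 around 0. Several of these alternatives could not turn a direction. The changed filters and the intensity trend leave these differences as they are, as do the probe settings for members with 1 probe. Median scaling shifts all genes of an array alike. Apart from normexp on all spots, Lin28a ran from -0.45 to -0.37, Tcl1 from -0.37 to -0.31, Rif1 from -0.32 to -0.21, Sall4 from -0.22 to -0.11, Utf1 from -0.14 to -0.08 and Zfp281 from 0.23 to 0.29. Normexp on all spots, which the wild type spots dimmer than their own background affect, moved the median of all genes by over 0.1, to -0.20, and each member upward, with Nanog at 0.78 and Zfp281 at 0.64. It called 5 members higher (Nanog, Zfp281, Sox2, Sall4 and Utf1) and 0 lower, where 5215 of 17714 genes were called higher and 8639 lower.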

How the data were processed

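RNA was measured on 1-colour Agilent arrays, 1 per sample. Per the file headers, the authors used Agilent Feature Extraction 10.1.1.1; the deposited processed intensity of a spot was background-subtracted and detrended, with surrogates for dim values and no scaling between arrays. The deposited series matrix holds log2 values whose 3 columns share a median of 5.52; limma is named in the submitters' processing notes, other steps are not given in the sources used here. Probe positions are on build mm7, per the file headers, and mm7 gene models were not used here.

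Here log2 processed intensity was scaled to the 75th percentile of the array (43379 spots, controls aside), outlier-flagged spots were dropped, and repeated spots averaged (41174 probes). Probes were named by accession, symbol or synonym from RefSeq's GRCm38.p6 table (80.4% of spots). A probe well above background on at least 1 array was tested, and the probe with the highest mean stood for its gene. On the 3 arrays 62.2% to 62.8% of spots were well above background and 0 saturated; the number of arrays limits the precision. All 3 lie on 1 slide, so no slide block was fitted. Differences were tested by lmFit and eBayes of limma 3.58.1, R 4.3.3 (Benjamini-Hochberg over 17714 genes, threshold 0.05), with 1 residual degree of freedom, 3.03 after moderation toward a prior SD of 0.09. Single errors near 0.09 are that shared minimum, and wild type, with 1 array, is taken to have the knockout arrays' spread. The steps were tested on simulated data.

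Members and lists were chosen with earlier results of these data known. The text names all members, Tet1 and the 4 genes of each list with the largest mean difference, except 1 that is not reported here; further genes and markers were named after their values were seen. Alternatives are given in the closing section.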

Additional observations from a re-analysis of the deposited data

How the results depend on the processing

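The count of called members, 0 as reported, was 5 (all higher) with normexp on all spots, 3 (all lower) with normexp without the 5 wild type spots more than 50 units below their background, 3 without all 8 spots below it (chosen after seeing the data), and 2 with an intensity trend. The count of all genes called, 63 as reported, was 13854, 3310, 3254 and 3372 in these 4 settings, 979 in the series matrix values, 906 with a filter requiring all 3 arrays and 0 of 27654 without a filter. The members' median difference, -0.20 as reported, was 0.34 with normexp on all spots, -0.15 without the 5 spots and -0.16 without all 8, -0.14 with quantile normalization, -0.22 with median scaling, -0.11 in the series matrix values, -0.21 with a gene's probes averaged and -0.22 over every probe; it was -0.20 and -0.20 without either knockout array. With normexp on all spots signs turned for Pou5f1 (0.090), Sox2 (0.46), Sall4 (0.34), Lin28a (0.044), Utf1 (0.35), Rif1 (0.089) and Tcl1 (0.032), and for Lin28a minus Pou5f1 (-0.046, and -0.0066 in the series matrix values); Sox2 turned also in the series matrix values (0.021) and under quantile normalization (0.0056). The cause was not tested beyond leaving out those spots. No paired analysis was possible because the knockout and wild type samples share no replicate number. Slide as a block was not run, since there is 1 slide.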
